A study of Mus musculus with 2 samples.

Results

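Macrophages of mouse pancreatic islets that were rich in transcripts of Slc40a1, Pparg, Snx24, Gabbr2 and Lpar6 are described here, in 1 sample of cells pooled from 6 to 8 wild-type C57BL/6J male mice, which the design text calls myeloid WT. Live DAPI- Epcam- CD45+ cells were sorted from the dissociated islets, stained with oligonucleotide-barcoded antibodies and read as 2 libraries, mRNA and antibody-derived tags. The labels give the mice no age, no treatment and no second genotype, and cells were not assigned to mice, so no condition was compared and nothing was replicated. Of 2237 barcodes, 1706 passed a macrophage gate of at least 200 genes, at most 10% mitochondrial UMIs (unique molecular identifiers, counted molecules), at least 5000 RNA UMIs and a C1qa, C1qb and C1qc level of at least 2000 CPM together (CPM, UMIs scaled to a fixed total that is the same for every cell or group). The 171 gated cells with the highest summed CPM of the 5 genes, 10.0% of the gate, were taken as members and the other 1535 as others. The level of a gene in a group is its UMIs pooled from all cells of the group, given in CPM of the pooled total. Ratios are members over others with an exact conditional binomial 95% interval, which covers counting error only and neither the spread between cells nor between mice.

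Slc40a1 encodes ferroportin, the iron exporter through which macrophages that have taken up red cells or heme return iron to the plasma. Pparg encodes PPARgamma, a nuclear receptor that pairs with RXR and switches on genes of fatty acid uptake and storage, and it is known for its part in the identity of lung alveolar macrophages, as Spic is for splenic red pulp macrophages. Snx24 encodes a sorting nexin of the endosomal system, Gabbr2 a subunit of the metabotropic GABA-B receptor, and Lpar6 a receptor for lysophosphatidic acid. Islet macrophages lie along the vessels inside the islet, take up material from beta cells and present it on MHC class II.

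The score was carried mainly by 2 of its 5 genes. Pparg supplied 33.8% and Snx24 36.3% of the members' summed score, Slc40a1 13.4%, Lpar6 10.8% and Gabbr2 5.76%. Pparg was the largest contributor in 76 members, Snx24 in 66, Slc40a1 in 22, Lpar6 in 5 and Gabbr2 in 2. A UMI of Slc40a1 was present in 99 of the 171 members (57.9%, exact Clopper-Pearson 95% interval 50.1 to 65.4%) and of Pparg in 168. The first name in the label was not detected in the other 72 members, so the cells are called score-high macrophages below. All 5 genes were detected in 35 members, 4 in 71, 3 in 46 and 2 in 19.

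The values that chose the cells are given as a description. The score had a median of 1794 CPM in members and 361 CPM in others, and a median of 33 score-gene UMIs per member (8 to 78) against 8 per other cell. The threshold cut a continuous range: the nearest member had 1346 CPM and the nearest other cell 1337 CPM, and 24 members and 49 others lay within 10% of it. Slc40a1 was at 282 CPM in members and 43.8 CPM in others, Pparg at 653 and 138, Snx24 at 686 and 176, Gabbr2 at 105 and 25.3, and Lpar6 at 203 and 43.9. In 82 T cells of the same sample, which should lack a macrophage program and had a median of 9650 UMIs, Slc40a1 and Gabbr2 had 0 UMIs, Snx24 was at 3.51 CPM and Lpar6 at 37.4 CPM. Pparg was at 88.9 CPM there, in 4.88% of the cells. Lpar6 (chromosome 14, 73237891 to 73240358, GRCm38.p6) lies inside Rb1 (73192858 to 73325951), and Rb1 itself was at 85.9 CPM in members and 59.3 CPM in others.

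**Figure D1:**
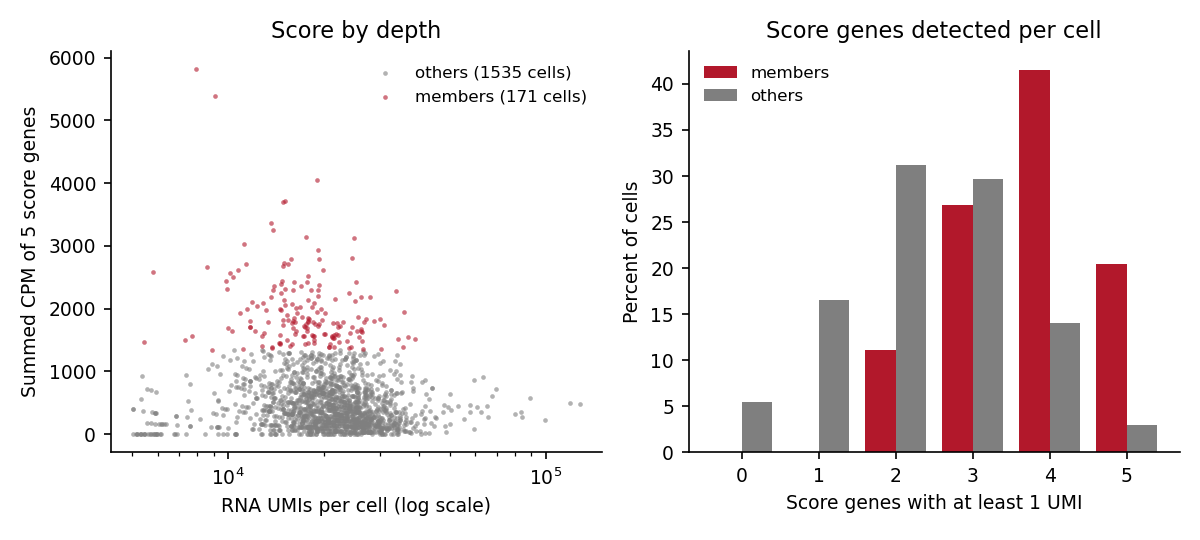
Left, each gated cell by RNA UMIs (log scale) and summed CPM of the 5 score genes; right, percent of members and of others with UMIs of 0 to 5 of those genes. The members form the upper end of a continuous range above about 1346 CPM, with no gap at the threshold, and most hold 3 to 5 of the genes.

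Depth differed between the groups. Members had a median of 17610 RNA UMIs (5436 to 38896) and others 21312, with 3808 and 4050 genes detected, 1.31% and 1.38% mitochondrial UMIs, and doublet scores of 0.0551 and 0.0586. All 2237 barcodes carried UMIs of both libraries. Macrophage identity was similar in both groups: all 12 macrophage markers were detected in members, with Adgre1 (F4/80) at 434 CPM against 351 and Csf1r at 371 against 327. Of the other cell types, the summed T cell list stood at 856 CPM in members and 576 in others, but 847 and 565 CPM of that was Il7r, while Trbc1 and Themis were at 0 and Cd3d at 0.962 CPM in members. The cDC1 list summed to 1611 and 968 CPM, of which Cadm1, an adhesion molecule, gave 1398 and 709, with Xcr1 at 1.92 CPM and Itgae at 0. B cell markers summed to 130 and 116 CPM, with Cd79a at 0, endocrine hormone and granule genes to 2255 and 3023 CPM, and all 6 mast cell markers were at 0 in members.

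Each score gene was also measured in cells that it had not chosen. When the gated cells were ranked by the other 4 genes, the top 171 held more of the fifth gene in all 5 cases. Slc40a1 was at 150 CPM in the top cells and 56.1 in the rest, a ratio of 2.67 (2.40 to 2.95), and Pparg at 449 and 156, a ratio of 2.88 (2.71 to 3.05). Snx24 stood at 2.45 (2.32 to 2.59), Gabbr2 at 2.93 (2.54 to 3.38) and Lpar6 at 3.21 (2.90 to 3.56). With every cell thinned to 5000 UMIs these ratios were 2.42, 2.52, 2.32, 2.93 and 2.48 in the same order. Slc40a1 and Pparg were thus higher in cells chosen by the other genes, by less than the 6.44 and 4.75 that the full score gives by choosing on them. The 5 genes were themselves chosen with earlier results of these data known, so this describes the set and is no independent support for it. The split of UMIs that follows uses the same cells and genes. When each cell's UMIs were split at random in 2 parts, cells chosen on one part had ratios of 6.01 for Slc40a1 and 4.31 for Pparg in the other part, and 148 of the 171 chosen were members.

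**Figure D2:**
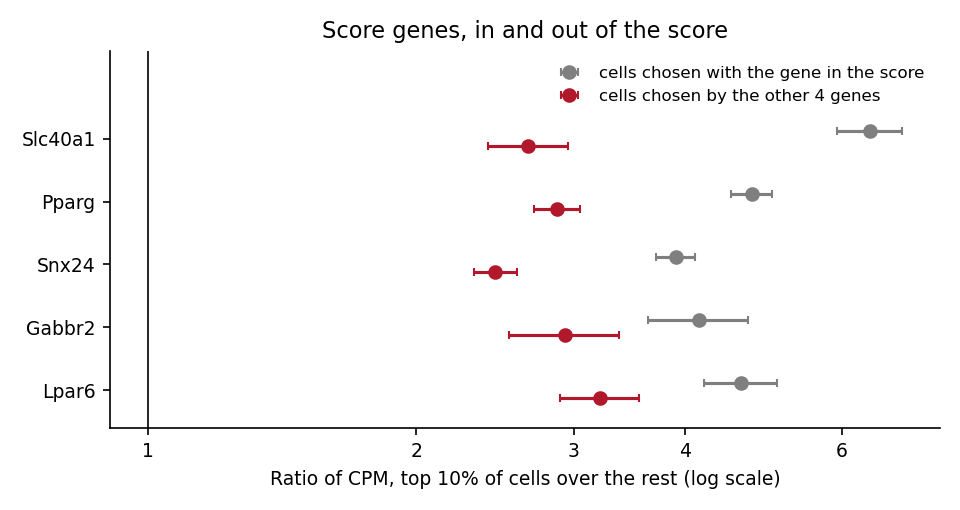
Ratio of CPM in the top 10% of gated cells over the rest (log scale) for each score gene, with cells chosen with that gene in the score (grey) or by the other 4 genes (red); bars are exact 95% intervals for counting error. All 5 red points lie between 2.45 and 3.21, below their grey points and above 1.

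Cd36, the fatty acid and oxidised lipid scavenger receptor, was given as a marker of these cells but is not in the score. It was at 1575 CPM in members and 670 CPM in others, a ratio of 2.35 (2.28 to 2.42). Over members the cell quartiles were 388, 1224 and 2559 CPM, and over others 51.7, 328 and 938 CPM, so the groups overlapped and 18.9% of others lay above the members' median. After thinning, 80.1% of members and 65.0% of others held a UMI, and no T cell did. Across deciles of the score Cd36 went from 251 CPM in the lowest to 1572 CPM in the highest. Across all 12982 genes with at least 20 UMIs, 11.9% were at least 1.5-fold higher in members and 17.5% at least 1.5-fold lower. They come from the cells that the score chose and are read here as a background only.

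Because PPARgamma and RXR bind direct repeats of the letters AGGTCA, the 250 bases before annotated starts of Cd36 and of Pparg that hold those letters are shown, from RefSeq (GRCm38.p6), 5′ to 3′ on the gene's strand, with AGGTCA or its reverse complement in capitals. Promoters of 13 of the genes named here were in the table (22 windows).
Cd36, chr5:17835897-17836146, minus strand: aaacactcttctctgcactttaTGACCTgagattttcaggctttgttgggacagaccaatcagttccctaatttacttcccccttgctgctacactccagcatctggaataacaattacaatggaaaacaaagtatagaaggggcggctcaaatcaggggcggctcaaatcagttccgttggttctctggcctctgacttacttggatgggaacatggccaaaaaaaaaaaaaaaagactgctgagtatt
Pparg, chr6:115360894-115361143, plus strand: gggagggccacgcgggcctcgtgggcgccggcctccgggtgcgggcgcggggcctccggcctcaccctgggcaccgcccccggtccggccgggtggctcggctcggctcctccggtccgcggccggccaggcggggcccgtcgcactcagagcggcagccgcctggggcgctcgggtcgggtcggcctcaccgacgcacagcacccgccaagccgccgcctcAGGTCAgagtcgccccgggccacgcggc
Pparg, chr6:115362099-115362348, plus strand: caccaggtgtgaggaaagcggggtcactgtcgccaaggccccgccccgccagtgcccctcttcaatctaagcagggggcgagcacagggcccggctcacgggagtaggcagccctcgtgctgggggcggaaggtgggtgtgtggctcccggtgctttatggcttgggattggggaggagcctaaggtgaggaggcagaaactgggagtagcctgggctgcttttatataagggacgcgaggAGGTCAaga
Each of these windows holds AGGTCA once. The Cd36 window lies before an internal start, inside the gene's annotated extent (chromosome 5, 17781690 to 17888959), and windows before its outer starts were not analysed here. A further Pparg window in the table, at 115421816 to 115422065 of chromosome 6, does not hold it. It was found in 3 of the 22 windows, all shown, and in 4607 of the 32851 windows of all genes. The direct repeat, 2 copies of AGGTCA with any 1 base between them, searched on both strands, was in 0 of the 22 and in 0.0335% of all. These matches are letters in a window, not binding sites.

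PPAR target genes had no shared direction. Of 16 tested, 3 were at least 1.5-fold higher (18.8%, against 11.9% of all genes) and 2 lower (12.5%, against 17.5%). The list's median log2 ratio was 0.10 against 0.066 over all genes. Lpl, which frees fatty acids from lipoproteins, was at 158 CPM in members and 57.1 in others, a ratio of 2.77 (2.50 to 3.06), and 55.0% and 41.3% of cells held a UMI. Fabp4, a fatty acid chaperone, had 40 UMIs in members, of which 36 were in 6 cells described below. Plin2, which coats lipid droplets, was at 558 and 465 CPM and Fabp5 at 56.4 and 53.6, within 1.5-fold. Hilpda, a droplet protein that restrains lipolysis, was lower, at 49.0 and 85.4 CPM (0.574, 0.485 to 0.676). Of the receptors and cofactors, Ncoa1, a coactivator, was at 94.6 and 54.3 CPM (1.74, 1.53 to 1.97), while Ppard was at 72.1 and 82.1 and Rxra at 5.45 and 4.29.

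In the list of cholesterol efflux and LXR genes 4 of 17 were higher (23.5%, against 11.9% of all genes) and 3 lower (17.6%, against 17.5%), with a median log2 ratio of 0.048. Lipa, the acid lipase that splits cholesteryl esters, was at 960 CPM in members and 548 in others (1.75, 1.68 to 1.82), with cell quartiles of 541, 912 and 1308 CPM against 226, 448 and 769 CPM. Nceh1, a neutral cholesteryl ester hydrolase, was at 396 and 209 CPM (1.90, 1.78 to 2.02). Npc1, which carries cholesterol out of the lysosome, was at 165 and 96.0 CPM (1.72, 1.56 to 1.88), and Soat1, which re-esterifies it, at 246 and 152 CPM (1.62). The members' median lay above that of the others for each of these 4 genes, although 18.2 to 27.9% of others lay above the members' median. The exporters Abca1 (454 and 334 CPM) and Abcg1 (286 and 203 CPM) stayed within 1.5-fold, as did Npc2, the lysosomal partner of Npc1, at 919 and 1026 CPM and Apoe at 8051 and 9035 CPM. Pltp, a phospholipid transfer protein, was lower at 8.33 and 22.6 CPM. In the lysosome list 3 of 28 genes were higher (10.7%, against 11.9% of all genes) and 1 lower (3.57%, against 17.5%), with a median log2 ratio of 0.091. The higher ones were Tfeb, the transcription factor of lysosome biogenesis, at 91.7 and 48.5 CPM (1.89, 1.66 to 2.14), Atp6v0a1, a proton pump subunit, at 135 and 71.8 CPM (1.88, 1.69 to 2.08), and Neu1, a sialidase, at 55.1 and 36.7 CPM (interval of the ratio 1.27 to 1.76).

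Apart from Slc40a1, most iron and heme genes stayed within 1.5-fold. Of 26 tested, 1 was higher (3.85%, against 11.9% of all genes) and 2 lower (7.69%, against 17.5%). The median log2 ratio was 0.063 and kept its sign in 15 of 20 alternative settings. Hmox1, which opens the heme ring and releases iron, was at 3156 CPM in members and 3318 in others (0.951), and the ferritin chains Fth1 and Ftl1 at 26525 and 27853 CPM and at 9277 and 9247 CPM. Slc11a1, the phagosomal metal transporter, was at 288 and 196 CPM (1.47). Blvra, which reduces biliverdin, was at 39.4 and 25.5 CPM (1.54, 1.27 to 1.87). Slc25a37, the mitochondrial iron importer, was lower at 3.85 and 12.8 CPM, as was Slc39a14, a plasma membrane iron importer, at 16.0 CPM in members. NRF2 target genes likewise had a median log2 ratio of 0.077, with 1 of 25 higher (4%) and 2 lower (8%). The lower ones were Slc7a11, the cystine importer, at 215 and 350 CPM, and Mgst1 at 1.60 and 3.86 CPM.

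Within the members, the 99 cells with a Slc40a1 UMI differed from the 72 without one. These groups share the score threshold, so a member without Slc40a1 had to reach it on the other genes, and Snx24 and Lpar6 were lower in the 99 (ratios 0.649 and 0.625). Median depth was 17849 and 16252.5 UMIs. Hmox1 was at 3854 CPM with Slc40a1 and 2044 without (1.89, 1.80 to 1.97), Spic at 349 and 156 CPM (2.23, 1.90 to 2.64), and Cd36 at 1826 and 1174 CPM (1.56, 1.46 to 1.66). Ftl1 was at 10042 and 8058 CPM (1.25) and Fth1 at 27497 and 24975 CPM. Il1b, the inflammasome-processed cytokine, went the other way, at 1014 and 1935 CPM (0.524, 0.493 to 0.557), while the chemokine Cxcl2 was higher with Slc40a1, at 1965 and 1384 CPM (1.42).

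Of the 10 testable genes of splenic red pulp macrophages, 5 were higher (50%, against 11.9% of all genes) and 0 lower (against 17.5%). The median log2 ratio was 0.66, but most of this came from a few cells. Spic, the transcription factor of red pulp macrophages, was spread over cells, with a UMI in 52.6% of members and 45.9% of others, and was at 275 and 161 CPM (1.71, 1.59 to 1.84). Itgad had 52 UMIs, in 1.75% of members, and Vcam1 was at 131 and 58.6 CPM, with 3 members holding 50% of its UMIs. Without the 10 gated cells described next, the list's median log2 ratio was -0.16. The alveolar macrophage list went from a median log2 ratio of 0.44 to -0.67 without those cells. Fabp4 and Mrc1, which are in that list, were among the genes that picked the cells, so a fall was partly built in. In all members 5 of the 10 alveolar genes were higher (50%) and 3 lower (30%), against 11.9% and 17.5% of all genes. The higher ones included Cd36, Fabp4 and Mrc1, while Marco and Car4 were at 0 UMIs in members and Siglecf at 0.321 CPM.

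The 10 gated cells with the highest summed CPM of Mertk, Fabp4, Tmem26, Colec12 and Mrc1, genes chosen after their values were seen, included 6 members with 9826 to 36885 RNA UMIs. These 6 held 110 of the members' 148 Mertk UMIs, 36 of 40 of Fabp4, 39 of 42 of Tmem26, 44 of 49 of Colec12 and 118 of 169 of Mrc1. For genes not used to pick them, they held 23 of 24 UMIs of Cd5l, a scavenger receptor family protein, 12 of 17 of Timd4, a phosphatidylserine receptor, 54 of 63 of Cfp (properdin), 194 of 286 of Ptprm, 142 of 236 of Ank2 and 167 of 410 of Vcam1. Slc40a1 was at 840 CPM in them and 261 in the other members, Spic at 909 and 250, and Hmox1 at 6010 and 3045. Cd36 was lower in them, at 669 and 1610 CPM, as were Pparg at 386 and 664, Itgax (CD11c) at 60.0 and 171, and Cx3cr1 at 8.57 and 125. Lyve1 was at 0 UMIs in all members. C1qa was lower at 1415 and 2489 CPM, and 3 of the 6 fall out at a C1q gate of 4000 CPM. Their CD206 antibody had a median of 282 UMIs per cell against 5 in the other members, but Mrc1, which encodes CD206, was among the genes that picked them. The ratios of Mertk, Fabp4, Tmem26, Colec12, Mrc1, Cfp, Ptprm and Ank2 in members over others therefore rest largely on few cells, and 4 of the other gated macrophages belong to the same 10. In the other members Ptprm was at 30.6 CPM and Ank2 at 31.3, against 20.4 and 18.8 in others. The rest of these genes were below the level of others there, for example Mertk at 12.7 and 13.3 CPM and Mrc1 at 17.0 and 29.6.

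The genes highest by the fixed rule included 5 that were spread over members. Hgf, hepatocyte growth factor, was at 83.7 CPM in members and 30.3 in others (2.76, 2.40 to 3.16), with a UMI in 51.5% and 30.7% of cells. Gng2, a G protein gamma subunit, was at 391 and 154 CPM (2.54, 2.39 to 2.71), Lhfpl2, a tetraspan membrane protein, at 203 and 80.7 CPM (2.51, 2.30 to 2.74), and Zbtb16, the transcription factor PLZF, at 41.3 and 13.9 CPM (2.97, 2.42 to 3.61). Gm37168 was at 60.6 and 20.4 CPM (2.97, 2.51 to 3.49). For Gng2, Lhfpl2, Hgf, Gm37168 and Zbtb16, 50% of the members' UMIs lay in 19 to 38 members. Others rested on fewer cells: Dlc1 was at 36.5 and 11.5 CPM (3.17) and Adgrl3, a latrophilin, at 56.4 and 18.3 CPM (3.09, or 2.27 without its highest cell), with 50% of the UMIs in 6 and 4 members and a UMI in 15.8% and 22.8% of members.

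Genes near Snx24, Lpar6 and Gabbr2 in function were mixed. Of 30 sorting nexins and PX-domain genes tested, 5 were higher (16.7%, against 11.9% of all genes) and 1 lower (3.33%, against 17.5%), with a median log2 ratio of 0.33. Snx29 was at 446 and 235 CPM (1.90, 1.79 to 2.01), Snx30 at 89.4 and 57.6 CPM (1.55), Hs1bp3 at 16.7 and 7.33 CPM (2.27), and Sh3pxd2b, a podosome scaffold, at 271 and 175 CPM (1.55). Of 20 genes of lysophosphatidic acid and related receptors, 3 were higher (15%) and 4 lower (20%), near the shares of all genes. Gna12, a G protein alpha subunit, was at 120 and 73.6 CPM (1.63), and Lpar1 at 1.28 and 5.70 CPM (0.225, 0.061 to 0.586). Kctd12, an auxiliary subunit of GABA-B receptors, was lower in members at 165 and 281 CPM (0.585, 0.535 to 0.640), and Gabbr1, the obligate partner of Gabbr2, was at 2.56 and 1.26 CPM.

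A list of TGF-beta pathway genes and genes of quiescent tissue macrophages had 3 of 15 higher, against 11.9% of all genes, and 0 lower, with a median log2 ratio of 0.18. The 3 higher genes belong to the TGF-beta pathway. Itgb8, the integrin chain that activates latent TGF-beta, was at 484 and 224 CPM (2.16, 2.04 to 2.28), Nrros, which presents it on macrophages, at 232 and 107 CPM (2.16, 1.99 to 2.34), and Smad3, its signal transducer, at 66.4 and 36.7 CPM (1.81, 1.55 to 2.10). Tgfbr1 was at 924 and 646 CPM (1.43). In the efferocytosis list 6 of 18 were higher (33.3%, against 11.9% of all genes) and 2 lower (11.1%, against 17.5%), with a median log2 ratio of 0.23. Mertk counts as higher here, but 110 of its 148 UMIs in members lay in the 6 cells described above. Besides Cd36 and Mertk the higher genes included Stab1, a scavenger receptor, at 85.9 and 44.5 CPM (1.93, 1.69 to 2.20), and Cd300lf, a phosphatidylserine receptor, at 24.4 and 12.6 CPM (1.94). Axl, another receptor of the Mertk family, was at 359 and 316 CPM (1.14).

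**Figure D3:**
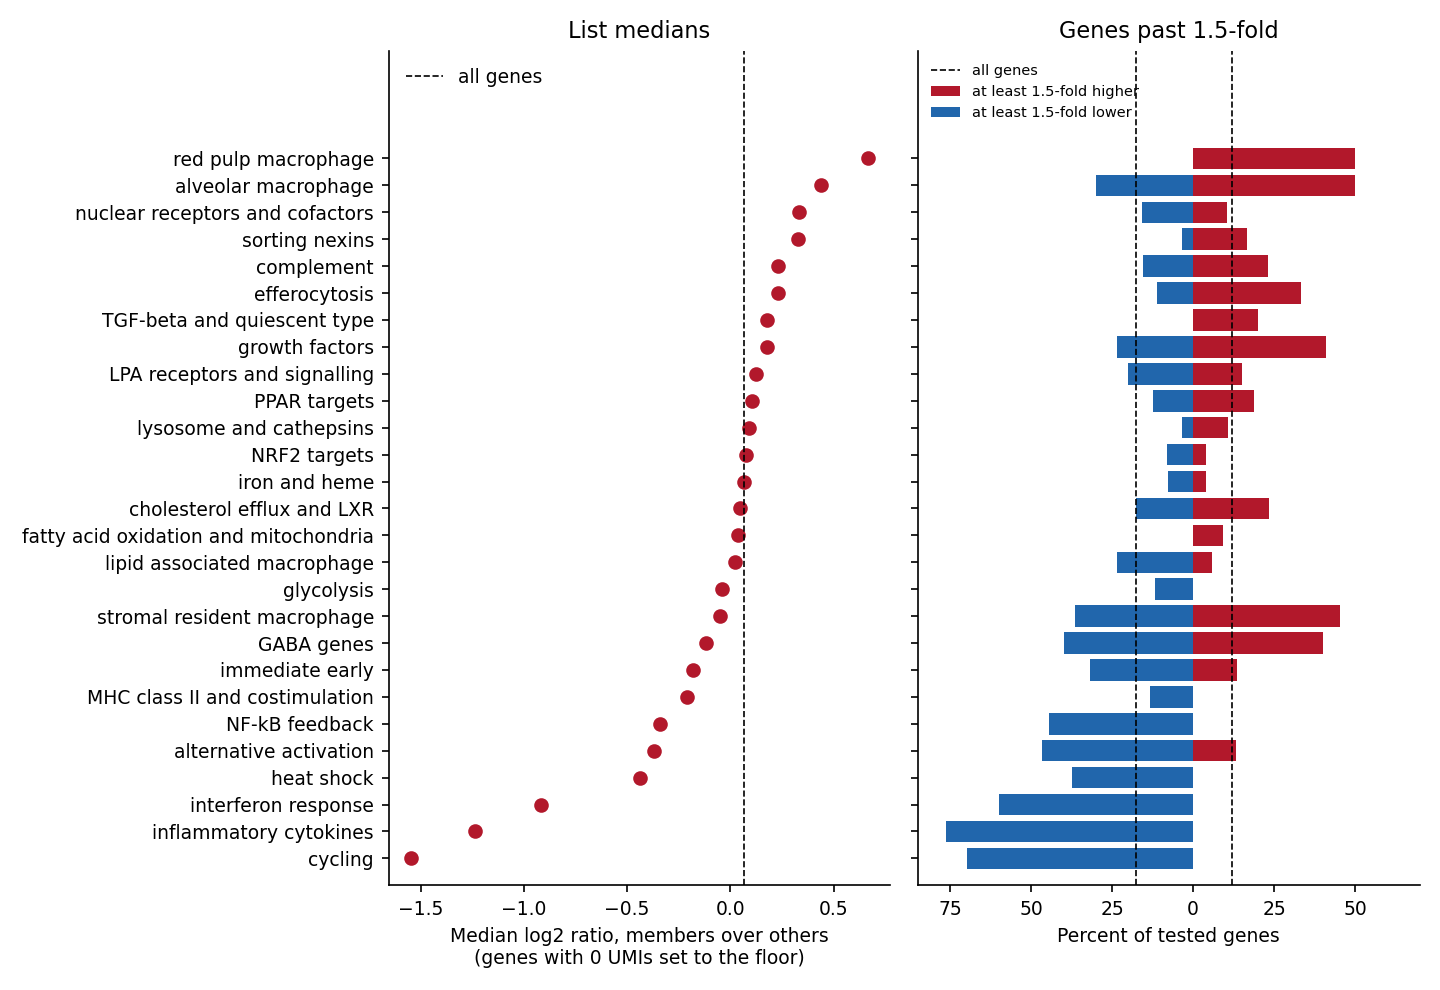
Left, median log2 ratio of members over others for each of 27 gene lists, with the value over all 12982 genes dashed; right, percent of tested genes at least 1.5-fold higher or lower, with 11.9% and 17.5% over all genes dashed. The cycling, inflammatory cytokine and interferon lists lie lowest, at -1.54, -1.24 and -0.92, and the iron and heme list lies at 0.063, beside the value of all genes.

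Inflammatory transcripts were lower in members. Of 21 inflammatory cytokines and chemokines 16 were lower (76.2%, against 17.5% of all genes) and 0 higher (against 11.9%), with a median log2 ratio of -1.24. Ccl5, a T cell attractant, was at 312 CPM in members and 1160 in others (0.269, 0.252 to 0.287), with upper quartiles over cells of 97.8 and 1436 CPM. Cxcl10 was at 526 and 1722 CPM (0.305, 0.291 to 0.321), and Cxcl2, a neutrophil chemokine, at 1741 and 3759 CPM. Il12b, the shared subunit of IL-12 and IL-23, was at 13.1 and 167 CPM (0.079, 0.057 to 0.107), with a UMI in 6.43% of members and 17.1% of others. Cxcl9 had 4 UMIs in members and Ccr7, a lymph node homing receptor, had 0 against 21.3 CPM in others, which allows a ratio of up to 0.056 by the exact interval. Of 18 NF-kB feedback genes 8 were lower (44.4%) and 0 higher, for example Nfkbia at 435 and 814 CPM (0.534, 0.505 to 0.564), with cell medians of 326 and 628 CPM. Costimulatory Cd40 was at 69.9 and 235 CPM (0.297, 0.258 to 0.340), whereas the antigen-presenting H2-Aa, at 10319.9 and 11485 CPM, stayed within 1.5-fold. In the MHC class II list 2 of 15 genes were lower (13.3%, near the share of all genes).

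Interferon and heat shock genes were lower too. Of 20 interferon response genes 12 were lower (60%, against 17.5% of all genes) and 0 higher (against 11.9%), with a median log2 ratio of -0.92. Isg15, a ubiquitin-like modifier, was at 140 and 614 CPM (0.228, 0.207 to 0.251), Rsad2 (viperin) at 325 and 1184 CPM (0.274) and Ifit1 at 78.2 and 307 CPM (0.255). No member was among the 171 cells highest in Ifit2, Ifit3, Rsad2, Isg15 and Cxcl10, which allows a share of up to 2.13% (exact upper limit), against 11.1% of others. Of 16 heat shock genes 6 were lower (37.5%) and 0 higher, led by Hspa1b at 293 and 1241 CPM (0.236) and Hspa1a at 314 and 1150 CPM (0.273), near-identical genes whose reads may be split between them. Their upper quartiles over cells were 68.1 and 65.5 CPM in members and 1080 and 845 CPM in others, so the difference lies in the upper part of the range of cells. Cells highest in other marker sets form part of the others: without the 675 others in the top 10% of the interferon, heat shock, Il12b, Gdf15 or Pdpn sets, the median log2 ratio was -0.56 for cytokines, -0.41 for interferon and -0.10 for heat shock genes, against 26 of 171 members in any of those sets. That comparison was chosen after the values were seen. Several genes that define the sets, such as Isg15, Rsad2, Hspa1a and Il12b, are also in the lists, and the 26 members were kept. A smaller difference was therefore built in, so these medians do not show which cells carry it.

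Other genes lowest by the rule were detected in fewer members than others. Fap, a membrane protease, was at 5.45 and 116 CPM (0.047, 0.027 to 0.075), with a UMI in 4.68% of members and 15.6% of others. Tnfsf9 (4-1BB ligand) was at 2.56 and 42.2 CPM (0.061), in 3.51% and 22.5% of cells. Gbp5, a guanylate-binding protein, was at 21.5 and 170 CPM (0.126, 0.098 to 0.161), in 12.9% and 38.0% of cells. Pdpn (podoplanin) was at 0.962 and 14.7 CPM, in 1.75% and 9.38% of cells. Hamp, which encodes the ferroportin-binding hormone hepcidin, had 0 UMIs in members and 219 in others, which allows a ratio of up to 0.186 by the exact interval, but 25.6% of those UMIs came from 1 cell and 1.89% of others held any. Of 10 cycling genes 7 were lower (70%, against 17.5% of all genes), with Mki67 at 8.97 and 47.1 CPM (0.190, 0.126 to 0.276). Hk2, the inducible hexokinase, was at 34.3 and 117 CPM (0.294, 0.241 to 0.357), although the glycolysis list as a whole had a median log2 ratio of -0.040. Lipid-associated macrophage genes were lower in 4 of 17 (23.5%, against 17.5% of all genes) and higher in 1, Lpl, with a median log2 ratio of 0.022, near that of all genes. Spp1 was at 33.3 and 118 CPM (0.282), Gpnmb at 6.73 and 25.4 CPM (0.265) and Lgals1 at 17.6 and 43.7 CPM (0.404), while Trem2 was at 95.2 and 130 CPM, Lgals3 at 2008 and 1743 CPM and Ctsb at 3006 and 2544 CPM, within 1.5-fold.

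**Figure D4:**
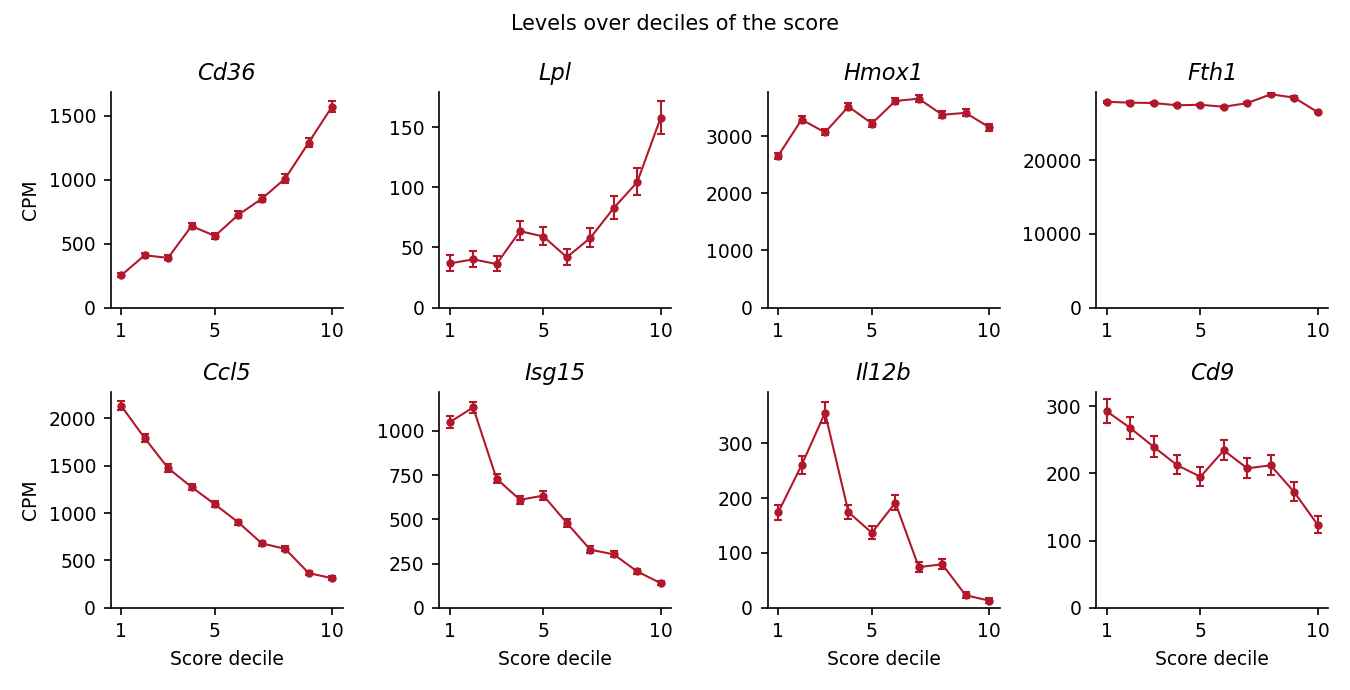
CPM of 8 genes in deciles of the score from lowest (1) to highest (10), about 171 cells each; bars are exact Poisson 95% intervals for counting error. Cd36 and Lpl are highest in decile 10 and Ccl5 and Isg15 lowest there, while Hmox1 and Fth1 show no such course.

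The antibody library was not used to choose the cells. Its tags were read by 15-base barcodes, shown because they are the measured sequences.
CD9: tagcagtcactccta
CD206: tcaactcggtgttgc
CD9, a tetraspanin of the cell surface, had a median of 178 antibody UMIs per member (quartiles 40 and 1171.5) and 734 per other cell (quartiles 110 and 2580.5), so the members lay lower and the groups overlapped widely. The means were 798 and 1930 UMIs, a ratio of 0.414 (0.411 to 0.416), or 0.506 per RNA UMI. That scaling takes the members' lower RNA depth into account, not the depth of the antibody library. When all gated cells were ranked by CD9 antibody within deciles of depth, 79 members fell in the lowest tercile (46.2%, exact interval 38.6 to 54.0%), 49 in the middle and 43 in the highest. Cd9 mRNA was lower too, at 123 and 226 CPM (0.545, 0.491 to 0.604), with a UMI in 31.0% and 46.8% of thinned cells. Within the lowest, middle and highest terciles of CD9 antibody, members still had more Cd36 than others, with ratios of 1.93, 2.14 and 2.27, and less Ccl5, with ratios of 0.353, 0.161 and 0.220.

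CD206, the mannose receptor encoded by Mrc1, had a median of 5 antibody UMIs per member and 10 per other cell, and 75 members fell in the lowest tercile (43.9%, 36.3 to 51.6%) and 36 in the highest. The means were in the other order, at 26.8 UMIs in members and a little less in others (ratio 1.07, 1.04 to 1.11, or 1.31 per RNA UMI). Of the members' sum, 1 member held 40.1%. Without the 10 cells described above the ratio of means was 0.410. Mrc1 was among the genes that picked them, so a fall was partly built in. Mrc1 mRNA was at 54.2 and 29.6 CPM. A UMI of Mrc1 was present in 18.7% of members and 25.7% of others at full depth, and in 9.36% and 9.19% after thinning. Its log2 ratio was -0.67 without those 10 cells, a fall built in because they were picked partly on Mrc1.

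**Figure D5:**
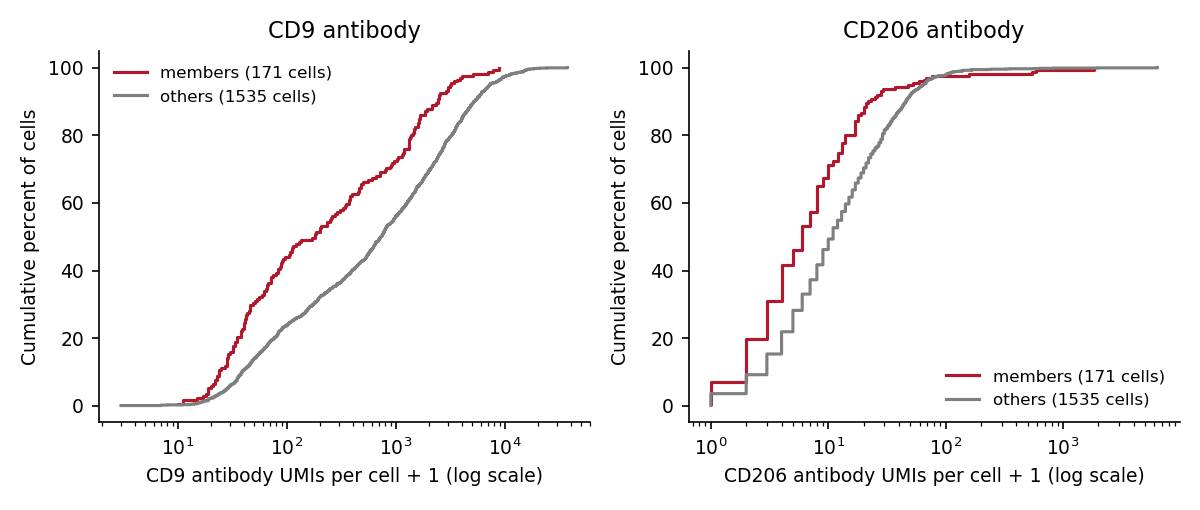
Cumulative percent of members and others by CD9 (left) and CD206 (right) antibody UMIs per cell plus 1 (log scale). The members' CD9 curve lies to the left of the others', with medians of 178 and 734 UMIs, and for CD206 the medians are 5 and 10 UMIs while a few members reach the far right.

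The members were compared with 3 other marker sets of the same gate, each again the top 171 cells. The set of Cx3cr1 and Tgfbr1 shared 26 cells with the members, 15.2% of each set (10.2 to 21.5%), against 9.45% of others in that set. The set of Pltp, Anxa1 and Clec4n shared 15 cells (8.77%) and that of Gdf15, Osm and Gclc 16 (9.36%), near the 10.0% that each set takes of the gate. Cells shared by 2 sets were left out of the ratios that follow. Cd36 was 2.97 times the level of the Cx3cr1 set (2.80 to 3.16), 3.75 times that of the Pltp set (3.54 to 3.96) and 1.37 times that of the Gdf15 set (1.31 to 1.43). Hmox1 was 4.81 times that of the Cx3cr1 set and 0.406 times that of the Gdf15 set, so the score-high cells lay between these 2. Cd9 mRNA was 0.761, 0.280 and 0.507 times that of the Cx3cr1, Pltp and Gdf15 sets, and the median CD9 antibody was 178 UMIs in members and 324, 2576 and 523 UMIs in the 3 sets. Il12b was lower in members than in each set, with ratios of 0.031, 0.143 and 0.318. Cxcl2 was not: it was 3.10 and 1.19 times the level of the Cx3cr1 and Pltp sets and 0.152 times that of the Gdf15 set.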

How the data were processed

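The deposited values are raw counts, 1 per feature and barcode, in UMIs. Per the file headers the authors' software was Cell Ranger 8.0.1, and the submitters' processing notes name mm10. The annotation, the intron setting and the rule that kept barcodes are not given in the sources used here. It gives 32285 genes and 2 antibody tags in 2237 barcodes. Where 2 or more IDs shared a symbol (38 symbols), the ID with most UMIs was used.

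Python 3.11.15 with numpy 2.4.6, scipy 1.17.1, pandas 2.3.3 and scanpy 1.11.5 was used. Doublets were scored with Scrublet in scanpy. Its automatic threshold marked 7 cells, too few to be accepted, so no cell was removed in the main values, and the 40 highest-scored cells, 4 of them members, were left out in an alternative. The members, gene lists and tests were chosen with earlier results of these data known.

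UMIs were summed per group and scaled to CPM. Genes needed at least 20 UMIs over both groups, and a gene was counted at a ratio of at least 1.5 either way. Named genes had at least 100 UMIs. They were the 15 highest and 15 lowest by the interval bound nearest to 1, leaving out score, mitochondrial, ribosomal protein, endocrine and acinar genes and genes under 1.5-fold without their richest cell, and at most 4 per list and direction. Genes within 1.5-fold were named from lists, and Il7r, Cadm1, Itgad and the genes of the 10 cells after their values were seen. Where members had 0 UMIs, the plotted list median uses a floor of 3 counts over the group. Shares of cells with a UMI are at full depth, which was lower in members, unless thinning is named. Thinned cells held 5000 UMIs each. T cells had at least 2000 RNA UMIs, at least 3 UMIs of Cd3d, Cd3e and Cd3g and under 500 CPM of C1q. Since there was 1 sample, nothing was tested between samples. Intervals are 95%, and those of UMI levels and ratios cover counting error only. Those of shares of cells treat each cell as 1 independent draw from this sample, so cells are not replicates and the spread between mice is not covered. The ratio step was tested on simulated counts. Alternatives covered the share of cells taken, the gates, the ranking, the score, doublets, depth, split UMIs, the comparison cells, cell weights, hormone-rich cells and the UMI filter.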

Additional observations from a re-analysis of the deposited data

How the results depend on the processing

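No paired analysis was possible because the series holds 1 sample of pooled cells. Of 119 named genes, 96 kept their direction under all of the 24 settings that gave a value, as did 14 of 27 gene lists. The cause of the changes below was not tested unless the setting itself leaves out cells or genes. Genes at least 1.5-fold higher (1550) numbered 2711 with at least 1 UMI in each sum, 961 with at least 100 UMIs and 1002 against others without the cells of 5 other marker sets. Genes at least 1.5-fold lower (2273) numbered 945 with at least 100 UMIs and 1514 after thinning. The CD9 antibody ratio (0.414) was 0.385 against others without those sets, 0.377 after thinning, 0.288 for the top 5%, 0.408 for the top 20%, 0.397 at a C1q gate of 4000 CPM, 0.571 ranked within deciles of depth, 0.427 with equal gene weights, 0.377 without Slc40a1 in the score, 0.377 without the highest doublet scores, 0.340 with split UMIs, 0.360 against the lower 50%, 0.420 without hormone-rich cells, 0.243 for medians, 0.506 per RNA UMI and 0.405 without the 10 cells. The CD206 antibody ratio (1.07) was not stable. It was 1.21 (against others without those sets), 1.42 (top 5%), 0.711 (top 20%), 0.837 (C1q gate of 4000 CPM), 1.20 (deciles), 0.978 (equal weights), 0.483 (without Slc40a1), 1.13 (lower 50%), 1.15 (without hormone-rich cells), 0.5 (medians), 1.31 (per RNA UMI), 0.410 (without the 10 cells), 1.01 (C1q gate of 1000 CPM), 0.648 (at least 10000 UMIs), and 1.68, 0.786 and 0.495 in the lowest, middle and highest CD9 tercile. The Cd36 log2 ratio (1.23) was 1.14 after thinning, 1.29 at 4000 CPM, 1.12 in deciles, 1.36 with equal weights, 1.80 against the lower 50%, 1.18 without hormone-rich cells and 0.95, 1.10 and 1.18 in the CD9 terciles. Held out, log2 ratios were 1.33 for Pparg and 1.31 for Lpar6 after thinning; 1.11 for Slc40a1, 1.38 for Snx24 and 1.47 for Lpar6 in the top 5%; 1.15 for Slc40a1, 1.35 for Pparg and 1.15 for Snx24 in the top 20%; 1.40 for Pparg at 4000 CPM. In deciles they were 1.10 for Slc40a1, 1.37 for Pparg, 1.08 for Snx24, 1.09 for Gabbr2 and 1.38 for Lpar6, and with equal weights 1.24, 1.37 and 1.20 for the first 3 and 1.34 for Lpar6. The median log2 ratio of cytokines (-1.24) was -0.56 against others without the 5 sets, -1.51 in the top 5%, -0.83 in the top 20%, -0.93 in deciles, -0.98 with split UMIs, and -1.72 and -1.79 in the middle and highest CD9 tercile. That of efferocytosis (0.23) was 0.13 in the top 20%, 0.12 without Slc40a1 and 0.73 in the lowest CD9 tercile, and that of red pulp genes reversed to -0.16 without the 10 cells and -0.50 in the highest tercile. Single genes that reversed had these log2 ratios. After thinning Mfge8 was at 0.58, Cbr2 at 0.71 and Etfdh at -0.097. In the top 5% Nr1h3 was at -0.23, Cfp at -0.49 and Cbr2 at 0.54. At 4000 CPM Mrc1 was at -0.029, Tmem26 at -2.31, Samd4 at -0.25, Mertk at -0.18, Fabp4 at -1.01 and Cfp at -1.27. In deciles Mgst1 was at 0.27, with equal weights Cfp at -0.77, without Slc40a1 Nr1h3 at -0.0091 and Cfp at -0.93, and with cells weighted equally Cbr2 at 0.21. Without the 10 cells Mrc1 was at -0.67, Tmem26 at -0.81, Colec12 at -0.36, Samd4 at -0.069, Fabp4 at -1.25, Cfp at -1.42 and Igf1 at -0.11. In the lowest CD9 tercile Mfge8 was at 0.23, P2ry10 at 0.71, Egr2 at -0.92, C3 at 0.64 and Cbr2 at 0.35. In the middle one Nr1h3 was at -0.78, Nr4a2 at 0.12, Gpnmb at 0.61, Mgst1 at 0.52 and Pf4 at -0.25, and in the highest Ptprm at -2.04, Samd4 at -0.31, Dlc1 at -0.25, Fabp4 at -1.81, Vcam1 at -1.55, Cfp at -1.47, Igf1 at -3.23 and Pf4 at -0.66. The comparison without 5 sets, that without the 10 cells and the CD9 terciles were chosen after seeing the data. The 10 cells were picked by Mertk, Fabp4, Tmem26, Colec12 and Mrc1, so lower values of these genes without them were built in.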

Other observations

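Growth factor and activation genes were measured but not described above. Of 17 growth factors tested, 7 were higher in score-high macrophages (41.2%, against 11.9% of all genes) and 4 lower (23.5%, against 17.5%). Besides Hgf, Vegfb, an endothelial growth factor, was at 25.6 CPM in members and 14.5 in others (1.77, 1.38 to 2.25), and Npnt, a matrix ligand of integrins, at 46.2 and 28.4 CPM (1.62, 1.35 to 1.94). Igf1 was at 23.1 and 11.6 CPM, in 5.85% of members and 6.45% of others at full depth and in 4.09% and 3.32% after thinning. Areg, a ligand of the EGF receptor, was lower at 16.7 and 41.8 CPM (0.399, 0.296 to 0.526), and Csf1 at 6.09 and 14.2 CPM (0.428, 0.256 to 0.676).

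Of 15 genes of alternative activation 2 were higher (13.3%, against 11.9% of all genes) and 7 lower (46.7%, against 17.5%). Socs1, a feedback inhibitor of cytokine signalling, was at 11.2 and 52.4 CPM (0.214, 0.149 to 0.299), Klf4 at 4.17 and 19.0 CPM (0.220) and Ccl22 at 5.13 and 15.5 CPM (0.331), and Arg1 and Retnla had 0 UMIs in members. Immediate early genes were split, with 7 of 22 lower (31.8%) and 3 higher (13.6%, near the share of all genes). Dusp2 was lower at 47.1 and 146 CPM (0.322, 0.271 to 0.379), and Myc higher at 19.2 and 8.97 CPM (2.15, 1.60 to 2.84). Complement genes were higher in 3 of 13 (23.1%, against 11.9% of all genes) and lower in 2 (15.4%, against 17.5%). Cfp counts among the higher ones, but 54 of its 63 UMIs in members lay in the 6 cells described above. Itgam (CD11b) was at 18.9 and 32.4 CPM (0.583, 0.441 to 0.758). Of 22 genes of fatty acid oxidation and mitochondria 2 were higher (9.09%) and 0 lower, with a median log2 ratio of 0.039.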
